A study of Mus musculus with 6 samples.

Results

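The microvillus structure genes are 10 genes whose proteins build, anchor or link the microvilli of intestinal epithelial cells. The genes were chosen by name for this role, with earlier results of these data known, and not by a threshold on their values. They are Vil1, Pls1, Espn, Eps8, Ezr, Myo1a, Cdhr2, Cdhr5, Ush1c and Myo7b, and all 10 were found among the 24736 gene symbols of the deposited expression table. All 10 also passed the filter, a mean of 1 TPM or more, as did 12268 genes in all. TPM is relative transcript abundance, already corrected for transcript length, with an equal total for each library. RNA sequencing was performed on intestinal crypts of male mice aged 12 weeks, 3 wild-type (WT) and 3 Mtg16-/-, which received no treatment. Crypts were released from the full length of the gut by 30 min in cold 2 mM EDTA, so regions of the gut were not separated. Mtg16-/- mice lack MTG16, a transcriptional corepressor encoded by Cbfa2t3. The sample labels describe the knockout as CRISPR-induced whereas the study's methods speak of gifted mice, and the sources used here do not settle which holds. The methods name no Cre driver for the Mtg16-/- mice.

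Microvilli are finger-like protrusions of the apical membrane, each supported by a core of parallel actin filaments, and together they form the brush border through which enterocytes absorb nutrients. Bundling proteins hold the filaments together, linkers tie the bundle to the membrane, and a protocadherin-based adhesion complex connects the tips of neighbouring microvilli so that they pack evenly. Assembly of the brush border begins in the crypt and is completed as absorptive cells leave it and mature on the villus.

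The genes were abundant in crypts, and on average lower in the libraries labelled Mtg16-/- than in WT, but none of them passed the main test. That test has no block, which would compare libraries of the same replicate number. With such a block 8 of the 10 had an adjusted p under 0.1 in limma, as did 1201 of 12268 tested genes. The labels do not say whether the numbers mark a pairing. On the log2(TPM + 1) scale, the difference of Mtg16-/- from WT ranged from -0.91 for Espn to -0.22 for Ush1c, with a median of -0.68 over the 10 genes and of -0.03 over all 12268 tested genes. All 10 differences were below 0, as were 53.6% of all tested genes, and 8 of the 10 were at -0.6 or lower, as were 6.28% of all tested genes. That limit is descriptive and was not among the planned measures, so the count is no independent contrast. Eps8 and Myo7b, both at -0.61, lay just inside it. The count was 6 of 10 with median-ratio rescaling or quantile normalization of the libraries. It was 1 of 10 with array weights, which give each library its own weight, without WT replicate 1 or without Mtg16-/- replicate 3. With limma's moderated test, 0 of the 10 reached an adjusted p under 0.1 (adjusted p = 0.303 to 0.558), in a comparison that called 0.0326% of all tested genes in either direction and 0.0163% in the lower one. At an unadjusted p under 0.05, limma gave 1 of the 10 genes, Espn, and 14.6% of all tested genes in either direction or 8.05% in the lower one. The groups overlapped for each of the 10 genes, whereas 11.1% of all tested genes had all Mtg16-/- libraries below all WT libraries. A second test of each gene by itself, an exact two-sided permutation test over the 6 libraries, gave p = 0.2 to 0.4, and its smallest possible value with 3 mice against 3 is 0.1.

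**Figure D1:**
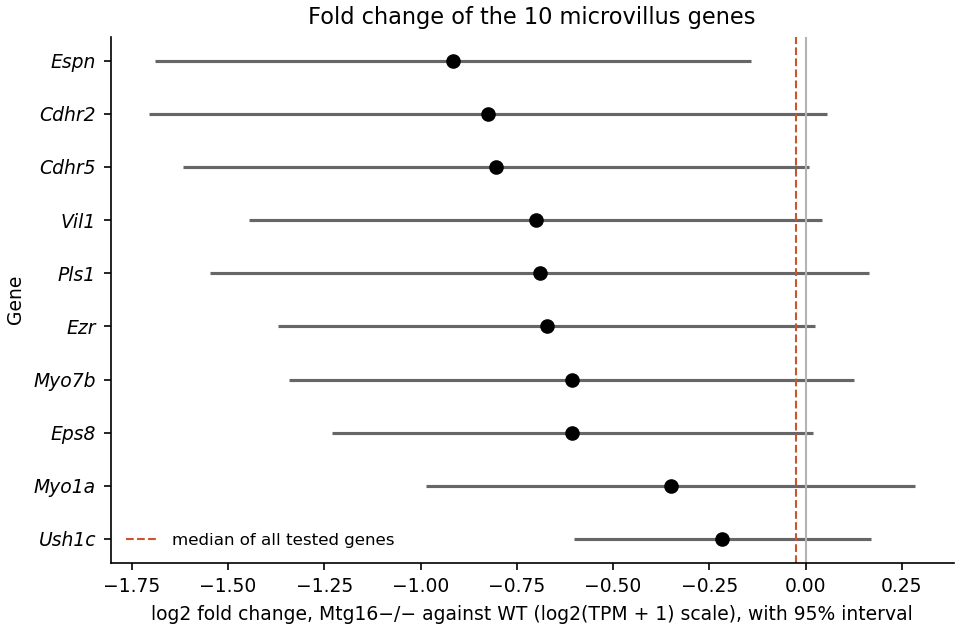
Log2 fold changes of the 10 microvillus genes, libraries labelled Mtg16-/- against WT, on the log2(TPM + 1) scale, with bars for the 95% confidence interval from limma. Every point lies below 0, and only the interval of Espn, from -1.69 to -0.14, stays below 0.

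The targeted gene did not separate the genotypes. Cbfa2t3 averaged 4.96 ± 1.56 TPM in WT against 4.76 ± 1.61 TPM in the libraries labelled Mtg16-/- (SD, n = 3 each), with a log2 fold change of -0.06 (SE 0.27, limma adjusted p = 0.937). A TPM summed over a whole gene cannot show the loss of an exon, so the directions given here rest on the labels. Across genes, the correlation between pairs of libraries was 0.931 to 0.980.

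Among the genes that bundle actin, Vil1 encodes villin, which bundles actin filaments and can also sever them. It lies on chromosome 1 of GRCm38 from 74409384 to 74435560. It was the most abundant of the 10 genes, and 1.23% of tested genes had a higher mean TPM. Its TPM was 1857, 1022 and 1093 in WT replicates 1, 2 and 3, and 1139, 779 and 543 in Mtg16-/- replicates 1, 2 and 3. WT replicate 1 stood above the other libraries, Mtg16-/- replicate 1 lay above the other WT libraries, and Mtg16-/- replicates 2 and 3 lay below every WT library. The mean was 1324 ± 463 in WT and 820 ± 300.0 in Mtg16-/- (SD, n = 3 each), 38.0% lower. The log2 fold change was -0.70 (SE 0.32, 95% confidence interval -1.44 to 0.04, limma adjusted p = 0.362).

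Pls1, on chromosome 9 from 95752642 to 95845306, encodes plastin 1, an actin bundler of the fimbrin family. Its TPM was 737, 305 and 347 in WT and 390, 248 and 191 in Mtg16-/- replicates 1 to 3. The libraries stood in the order seen for Vil1. Pls1 had a log2 fold change of -0.69 (SE 0.37, 95% confidence interval -1.55 to 0.16, limma adjusted p = 0.417). Its relative Pls3, which encodes another plastin and was named after its values were seen, was far less abundant and had the opposite sign. Pls3 had a TPM of 2.3, 4.0 and 4.71 in WT and 5.50, 5.82 and 5.74 in Mtg16-/-. The groups did not overlap for Pls3, as for 21.0% of all tested genes in either direction, and it did not pass the test (log2 fold change 0.56, SE 0.23, limma adjusted p = 0.322).

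Espn, on chromosome 4 from 152120331 to 152152414, encodes espin, a bundling protein that lengthens actin bundles. Espn had the most negative fold change of the 10 genes. Its TPM was 124, 72.4 and 66.9 in WT and 68.8, 43.5 and 29.0 in Mtg16-/-. Here Mtg16-/- replicate 1 exceeded WT replicate 3 but not WT replicate 2, which kept the groups from separating by 1 library. The mean was 87.8 ± 31.7 in WT and 47.1 ± 20.2 in Mtg16-/- (SD, n = 3 each), 46.4% lower. The log2 fold change of Espn was -0.91 (SE 0.34, 95% confidence interval -1.69 to -0.14), with an unadjusted p = 0.0261 and an adjusted p = 0.303 from limma.

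Eps8, on chromosome 6 from 137477245 to 137649397, acts at the microvillus tip, where its protein caps and bundles actin filaments. Eps8 had a TPM of 143, 84.5 and 93.0 in WT and 93.7, 68.2 and 49.2 in Mtg16-/-. Its library order was again that of Vil1, with WT replicate 3 and Mtg16-/- replicate 1 differing little. Eps8 had a log2 fold change of -0.61 (SE 0.27, 95% confidence interval -1.23 to 0.02, limma adjusted p = 0.351).

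**Figure D2:**
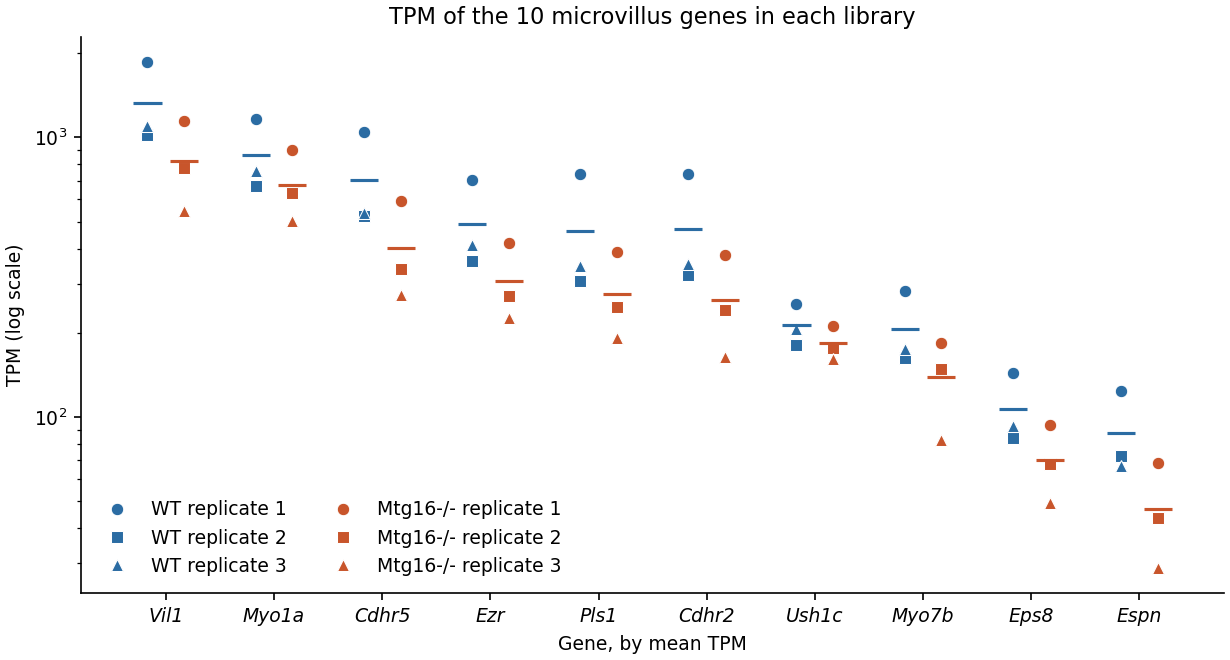
TPM of each of the 10 microvillus genes in the 6 libraries on a log axis, with 1 point per mouse and a bar for the mean of each genotype. WT replicate 1 is the highest library for all 10 genes and Mtg16-/- replicate 3 the lowest, and for Vil1 the values run from 543 to 1857 TPM.

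The genes that tie the actin core to the membrane differed from each other in the size of the difference. Ezr, on chromosome 17 from 6738131 to 6782780, encodes ezrin, which links membrane proteins to actin filaments. Its TPM was 701, 361 and 412 in WT and 418, 272 and 225 in Mtg16-/-. Mtg16-/- replicate 1 and WT replicate 3 were close to each other in the middle of the range. The log2 fold change of Ezr was -0.67 (SE 0.30, 95% confidence interval -1.37 to 0.03, limma adjusted p = 0.354).

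Myo1a, on chromosome 10 from 127703436 to 127720940, encodes the brush border myosin I, which bridges the actin core and the membrane along the side of the microvillus. Its TPM was 1164, 668 and 757 in WT and 897, 630 and 502 in Mtg16-/-. WT replicate 2 and Mtg16-/- replicate 2 lay close together, in the lower part of the range. The mean was 863 ± 265 in WT and 676 ± 201 in Mtg16-/- (SD, n = 3 each), with a log2 fold change of -0.35 (SE 0.28, 95% confidence interval -0.99 to 0.29, limma adjusted p = 0.558).

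The genes of the intermicrovillar adhesion complex ranged widely in the size of the difference. Cdhr2 and Cdhr5 encode the protocadherins that bind each other between the tips of adjacent microvilli, and lie on chromosome 13 from 54701463 to 54736662 and on chromosome 7 from 141269080 to 141276795. Cdhr2 had a TPM of 738, 322 and 354 in WT and 378, 242 and 164 in Mtg16-/-. Cdhr5 had a TPM of 1043, 524 and 535 in WT and 593, 338 and 273 in Mtg16-/-. Both genes were highest in WT replicate 1 by a wide margin, and Mtg16-/- replicate 1 lay just above the other WT libraries. The log2 fold change was -0.82 for Cdhr2 (SE 0.38, 95% confidence interval -1.71 to 0.06, limma adjusted p = 0.364) and -0.80 for Cdhr5 (SE 0.35, -1.62 to 0.01, limma adjusted p = 0.345). Cdhr2 also spanned the widest range of the 10 genes, with the highest library at 4.50 times the lowest.

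Inside the cell the protocadherins are held by a scaffold and a motor. Ush1c, on chromosome 7 from 46195350 to 46238490, encodes the scaffold harmonin. It had the narrowest range of the 10 genes, with a TPM of 254, 181 and 207 in WT and 212, 177 and 162 in Mtg16-/-, so that the highest library was at 1.57 times the lowest. Ush1c had a log2 fold change of -0.22 (SE 0.17, 95% confidence interval -0.60 to 0.17, limma adjusted p = 0.552). Myo7b encodes the myosin that carries the complex toward the tips. Its TPM was 283, 163 and 176 in WT and 184, 148 and 82.9 in Mtg16-/-, with the lowest value in Mtg16-/- replicate 3 well apart from the rest. The log2 fold change of Myo7b was -0.61 (SE 0.32, 95% confidence interval -1.34 to 0.13, limma adjusted p = 0.408). Anks4b and Calml4, which encode further subunits of the complex and were named after their values were seen, had log2 fold changes of -0.41 and -0.18 (limma adjusted p = 0.503 and 0.595).

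The 10 genes varied together from mouse to mouse. WT replicate 1 was the highest library for 10 of 10 genes, Mtg16-/- replicate 3 the lowest for 10 of 10 and Mtg16-/- replicate 2 the second lowest for 10 of 10. Mtg16-/- replicate 1 lay above WT replicates 2 and 3 for 9 of 10 genes, Espn being the exception. Over the 6 libraries, Pearson's r of log2(TPM + 1) between 2 of the genes was 0.909 (Espn and Ush1c) to 0.999 (Vil1 and Eps8), with a median of 0.980 over 45 pairs, and the points share libraries and scaling. With the group means removed it was still 0.898 to 0.999, so the shared order also held within genotypes. The TPM summed over the 10 genes was 7045, 3702 and 4041 in WT and 4374, 2946 and 2222 in Mtg16-/-, which is 0.705%, 0.370% and 0.404% of all TPM in WT and 0.437%, 0.295% and 0.222% in Mtg16-/-. The sum was thus largest in 1 WT mouse, and Mtg16-/- replicate 1 lay within the WT range. The standard error of the log2 fold change had a median of 0.32 over the 10 genes and of 0.18 over all tested genes.

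The place of a single library decided whether the groups separated. Without Mtg16-/- replicate 1, 10 of 10 genes had both remaining Mtg16-/- libraries below all WT libraries, as did 20.4% of all tested genes, and the median log2 fold change of the 10 was -0.95, with 0 called by limma. Without WT replicate 3 the count was 1 of 10, against 13.6% of all tested genes, and it was 0 of 10 when any of the other libraries was left out. The median was -0.38 without WT replicate 1 and -0.45 without Mtg16-/- replicate 3.

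**Figure D3:**
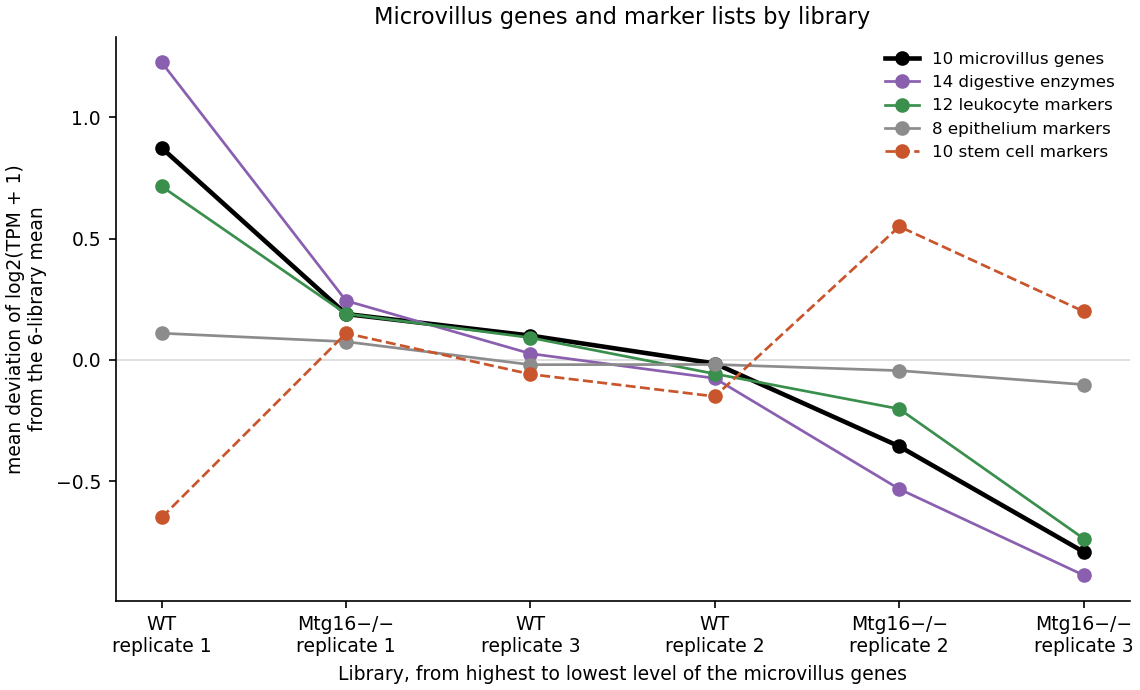
Mean log2 deviation of the 10 microvillus genes and of marker lists in each of the 6 libraries, as the deviation of each gene from its mean over the 6 libraries averaged over the list. The microvillus genes go from 0.87 in WT replicate 1 to -0.79 in Mtg16-/- replicate 3, in the same order of libraries as the digestive enzymes and the leukocyte markers.

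Digestive enzyme genes varied over the libraries in the same order, and enterocyte and stem cell markers in others. The mean log2 deviation of the 10 microvillus genes was 0.87, -0.01 and 0.10 in WT and 0.19, -0.36 and -0.79 in Mtg16-/-. The 14 digestive enzymes of the brush border, which mark absorptive cells, had deviations of 1.23, -0.08 and 0.03 in WT and 0.24, -0.53 and -0.89 in Mtg16-/-, in the same order of libraries. Of these enzyme genes 14 of 14 had a lower mean in Mtg16-/-, 4 of them at an unadjusted p under 0.05 in limma and 0 called, with a median log2 fold change of -0.78. Beside this and the lists below, 53.6% of all tested genes had a difference below 0. In limma 14.6% of all tested genes had an unadjusted p under 0.05 in either direction, and 8.05% in the lower one. The 20 enterocyte markers had a summed TPM of 16535 to 47440 in WT and 8375 to 16135 in Mtg16-/-, a median log2 fold change of -1.12 and 0 called, with 12 of 20 at an unadjusted p under 0.05. Their mean log2 deviation was 1.51, -0.03 and 0.31 in WT and 0.001, -0.87 and -0.93 in Mtg16-/-. Here WT replicate 3 lay above Mtg16-/- replicate 1, unlike for the microvillus genes. The 10 markers of crypt base stem cells had a summed TPM of 1013 to 1707 in WT and 1854 to 2449 in Mtg16-/-, and 10 of 10 had a higher mean there, with 0 called and 7 at an unadjusted p under 0.05. The 10 Paneth cell markers had a summed TPM of 9942 to 22853 in WT and 27563 to 35069 in Mtg16-/-, and the 10 enteroendocrine markers of 243 to 326 in WT and 428 to 449 in Mtg16-/-. In both lists 10 of 10 had a higher mean in Mtg16-/- and 0 were called, with 8 and 7 at an unadjusted p under 0.05 and median log2 fold changes of 0.99 and 0.66. The 10 goblet cell markers were 5 lower and 5 higher in mean, and the 7 tested tuft cell markers were 7 lower, with 0 called in either list. The 10 proliferation markers were 1 lower and 9 higher in mean, with 0 called. WT replicate 1, highest for the enterocyte markers, had the lowest mean log2 deviation for stem cell, Paneth cell and proliferation markers. Its values there were -0.65, -1.07 and -0.42. These lists share the libraries of the microvillus genes, their part in the result was not tested, and in bulk crypts fewer cells of a type and less RNA per cell cannot be told apart.

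The crypts were epithelial in both genotypes, with some immune RNA. The 8 epithelial markers had a summed TPM of 9807 to 10545 in WT and 9687 to 10712 in Mtg16-/-, and a median log2 fold change of -0.01. Epcam, the defining one of them, was at 1087 to 1375 TPM in WT and 1091 to 1193 in Mtg16-/-. The 12 leukocyte markers had a summed TPM of 179 to 499 in WT and 98.6 to 258 in Mtg16-/-, with 12 of 12 lower in mean, 0 at an unadjusted p under 0.05 and a median log2 fold change of -0.53. Their mean deviation was 0.71, -0.06 and 0.09 in WT and 0.19, -0.20 and -0.74 in Mtg16-/-, the same order of libraries as for the microvillus genes, and their part in that order was not tested. The summed TPM of the leukocyte markers had another order, with WT replicate 2 below Mtg16-/- replicate 2. The mean deviation of the epithelial markers, from 0.11 to -0.10, had the microvillus order except that WT replicate 2 lay above WT replicate 3. Of 12 markers of stroma, muscle and endothelium, 3 had a mean TPM of at least 1, and 1 was at 0 in every library. Markers of gut regions were examined as well, with 0 called in each list, and their part in the result was not tested either. The 9 proximal small intestine markers had a summed TPM of 1985 to 6100 in WT and 674 to 1411 in Mtg16-/-, with 9 of 9 lower in mean. Of these 5 had an unadjusted p under 0.05 in limma, as did 8.05% of all tested genes in the lower direction. The 6 tested colon markers had a sum of 315 to 449 in WT and 241 to 299 in Mtg16-/-, with 4 lower and 2 higher in mean. At an unadjusted p under 0.05 in limma there were 3, all lower. The 7 ileum markers had a sum of 1567 to 3064 in WT and 1760 to 3318 in Mtg16-/-, so their sums overlapped. In mean 4 were lower and 3 higher, and 1, a higher one, had an unadjusted p under 0.05 in limma.

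The genes were also set against each other inside a library. For this description, which has no test, each gene's log2 deviation was taken relative to the mean of the other 9. On this scale the genotypes did not overlap for 3 of the 10 genes, Myo1a, Espn and Vil1, and relative to the mean of the 10 genes they did not overlap for 16.4% of all tested genes, so nothing particular to the 10 is read from the count. Myo1a was at -0.25, -0.15 and -0.08 in WT and 0.09, 0.13 and 0.25 in Mtg16-/-, so its share of the summed TPM of the 10 genes was 16.5% to 18.7% in WT and 20.5% to 22.6% in Mtg16-/-. Espn was at 0.15, 0.28 and 0.03 in WT and -0.03, -0.14 and -0.29 in Mtg16-/-. The ratio of Vil1 to Espn, both bundling genes, was 14.9, 14.1 and 16.3 in WT and 16.6, 17.9 and 18.7 in Mtg16-/-. Vil1 lay close to the others, at -0.10 to 0.05 over the libraries. Its genotypes were kept apart only by 0.02 in WT replicate 1 against -0.002 in Mtg16-/- replicate 1. As a share of the summed TPM, the genotypes overlapped for Vil1 and did not for Cdhr2. They also overlapped for the ratios of Vil1 to Pls1, Vil1 to Ush1c and Myo1a to Myo7b. Ush1c was at -0.56, -0.12 and -0.03 in WT and -0.09, 0.23 and 0.57 in Mtg16-/-, and these overlapped. The pair of protocadherins kept close to each other, with a ratio of Cdhr5 to Cdhr2 of 1.41 to 1.63 in WT and 1.39 to 1.67 in Mtg16-/-.

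**Figure D4:**
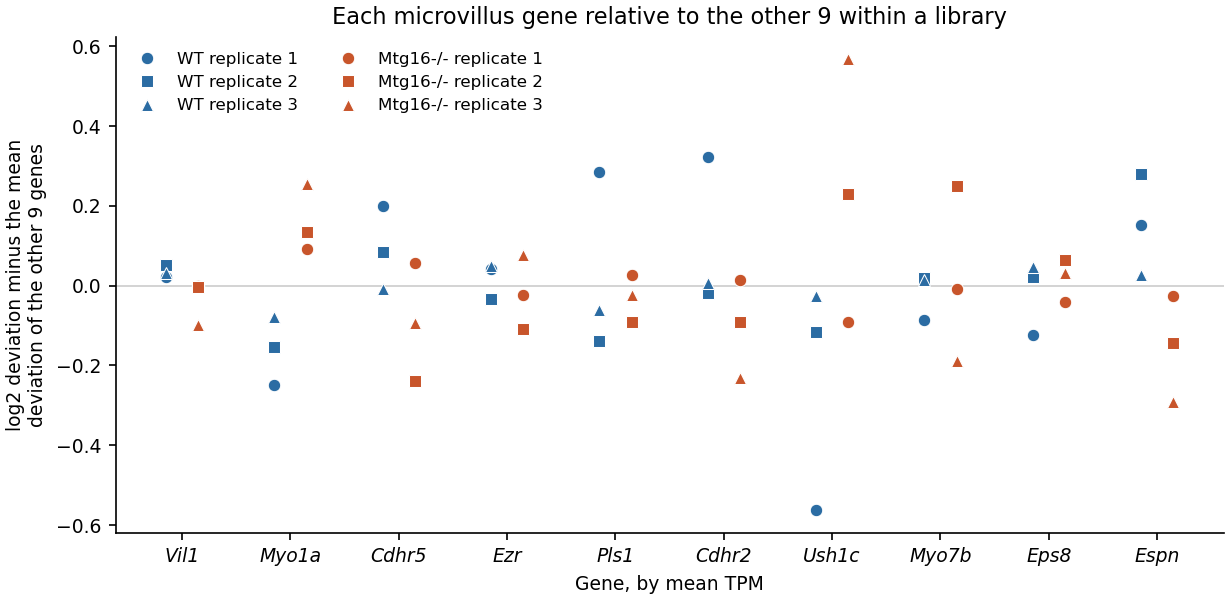
Log2 deviation of each of the 10 microvillus genes relative to the mean of the other 9, in the 6 libraries. Myo1a lies above 0 in the Mtg16-/- libraries and below 0 in WT, Espn the other way round, and Ush1c runs from -0.56 in WT replicate 1 to 0.57 in Mtg16-/- replicate 3.

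Other genes of the microvillus and its terminal web had means in both directions. Of 40 further structure genes listed for the brush border, 36 were tested, 28 had a lower and 8 a higher mean in Mtg16-/-, and 0 were called. Their median log2 fold change was -0.27, and 5 of 36, all lower, had an unadjusted p under 0.05 in limma. Of all tested genes 53.6% had a difference below 0, and 8.05% were lower at an unadjusted p under 0.05 in limma. Krt20, a keratin of differentiated intestinal cells, had a log2 fold change of -1.05 (SE 0.42, limma adjusted p = 0.313), with a TPM of 1747, 689 and 829 in WT and 776, 454 and 315 in Mtg16-/-. Eps8l2, a relative of Eps8, had a TPM of 289, 163 and 153 in WT and 150, 104 and 73.9 in Mtg16-/-, with groups that did not overlap (log2 fold change -0.87, SE 0.31, limma adjusted p = 0.296). Groups did not overlap in the lower direction for 11.1% of all tested genes. The most positive differences were small, with 0.34 for the scaffold gene Slc9a3r2, 0.19 for the keratin gene Krt18 and 0.12 for Prom1, which encodes prominin-1, a protein of membrane protrusions (limma adjusted p = 0.575, 0.510 and 0.698).

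The actin genes themselves were named after their values were seen. Actb, which encodes beta-actin, had a TPM of 8228, 5338 and 5280 in WT and 5596, 3981 and 4000 in Mtg16-/-, a log2 fold change of -0.46 (limma adjusted p = 0.450). Actg1, which encodes gamma-actin, had a log2 fold change of 0.07 (limma adjusted p = 0.889). The ezrin partners Slc9a3r1, which encodes the scaffold EBP50, and Pdzk1 had log2 fold changes of -0.69 and -0.81 (limma adjusted p = 0.386 and 0.428), with 0 of these passing the test.

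Relatives of the 10 genes by sequence family are given by the most abundant tested one of each family, and the family of Espn had 0 tested relatives. Scin, a villin relative, had a log2 fold change of -0.36 beside -0.70 for Vil1, and Lcp1, a plastin of leukocytes, had 0.09 beside -0.69 for Pls1. Eps8l3 was at -0.36 beside -0.61 for Eps8, whose other relative Eps8l2 was at -0.87. Nf2 was at -0.25 beside -0.67 for Ezr, and Myo1d at -0.26 beside -0.35 for Myo1a. Cdh17, an intestinal cadherin, was at -0.45, Whrn, a harmonin relative, at 0.03, and Myo7a, a myosin relative, at -0.51 beside -0.61 for Myo7b. None of these passed limma's test, and the differences between members and relatives were not tested.

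The genes whose pattern over the 6 libraries was closest to the mean deviation of the 10 were Sema6a and Iqgap2 (Pearson's r = 0.999 each) and Npc1l1, Vav2 and Cyp4f16 (r = 0.998 each), chosen as the highest of 8521 compared genes. Such likeness was frequent, with r of at least 0.9 for 12.7% of the compared genes. Iqgap2, which encodes an actin-binding scaffold, had a TPM of 267, 125 and 141 in WT and 147, 99.3 and 65.3 in Mtg16-/-. Npc1l1, which encodes the brush border cholesterol transporter, had a TPM of 449, 189 and 229 in WT and 237, 145 and 91.6 in Mtg16-/-.

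The promoters are shown because MTG16 can be recruited to DNA by basic helix-loop-helix factors, whose E-box motif is CANNTG, and because the 10 genes varied together. RefSeq (GRCm38.p6) gave windows for 8 of the 10 genes, 10 windows in all. The windows of 4 genes are printed, from 250 bases before an annotated start up to the start, 5′ to 3′ on the gene's strand with E-boxes in capitals. They are Vil1 at chr1:74409134-74409383 on the plus strand, Myo1a at chr10:127705006-127705255 on the plus strand, Cdhr2 at chr13:54701213-54701462 on the plus strand and Cdhr5 at chr7:141276787-141277036 on the minus strand. For Myo1a and Cdhr5 the window precedes a start that lies within the gene's annotated span.
Vil1: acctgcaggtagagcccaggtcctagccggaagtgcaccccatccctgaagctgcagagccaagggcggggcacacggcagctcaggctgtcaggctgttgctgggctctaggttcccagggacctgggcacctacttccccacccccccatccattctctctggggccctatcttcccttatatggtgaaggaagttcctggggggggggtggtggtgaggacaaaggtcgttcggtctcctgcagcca
Myo1a: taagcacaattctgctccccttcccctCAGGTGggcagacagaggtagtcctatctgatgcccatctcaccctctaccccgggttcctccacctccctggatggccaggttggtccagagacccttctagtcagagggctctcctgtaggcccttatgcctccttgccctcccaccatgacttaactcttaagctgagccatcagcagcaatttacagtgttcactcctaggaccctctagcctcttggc
Cdhr2: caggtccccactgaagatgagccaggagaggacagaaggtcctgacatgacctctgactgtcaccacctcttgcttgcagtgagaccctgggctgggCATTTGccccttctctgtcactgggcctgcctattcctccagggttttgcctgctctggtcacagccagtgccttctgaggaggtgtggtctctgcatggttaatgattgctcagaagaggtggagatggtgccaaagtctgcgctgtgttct
Cdhr5: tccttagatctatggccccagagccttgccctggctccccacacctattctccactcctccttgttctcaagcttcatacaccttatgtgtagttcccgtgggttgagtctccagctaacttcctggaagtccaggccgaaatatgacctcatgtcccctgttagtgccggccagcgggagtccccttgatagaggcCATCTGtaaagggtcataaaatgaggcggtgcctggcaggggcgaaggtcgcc

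Vil1 had 0 E-boxes in its window, and Myo1a, Cdhr2 and Cdhr5 had 1 each, whose first base lay 223, 153 and 53 bases before the start. CANNTG, which reads the same on both strands, was present in 6 of the 8 genes and 7 of the 10 windows, and in 66.2% of 32851 promoter windows of the same length. The other motifs were searched on both strands. CAAAGTC, found in sites of HNF4 factors, was present in 1 of the 8 genes, Cdhr2, where it began 20 bases before the start, and in 3.84% of all windows. CNATAAA, found in sites of CDX factors, was present in 1 of the 8 genes, Espn, and in 9.81% of all windows. AGATAA and TATAAA were in 0 of the 10 windows, and in 9.99% and 12.4% of all windows. The matches describe letters only, and no binding was measured in these files. The study mapped MTG16 binding by ChIP-seq in intestinal crypts after Rbpj depletion, and those sites were not examined here.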

How the data were processed

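The table held 1 TPM value per gene and library, made by the authors from total RNA depleted of ribosomal RNA and deposited with 2 decimals. The submitters' processing notes name cutadapt 1.9.1, STAR 2.5.2a, RSEM 1.3.0, DESeq2 1.12.3 and the build mm10 (GRCm38) without stating their roles. TPM sums to the same total in each library and keeps no read number, so depth is unknown and no counting interval is given. Replicates are taken as separate mice throughout, because the labels call them biological triplicates.

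Values were transformed to log2(TPM + 1), which understates changes of low genes, and the 12268 genes averaging at least 1 TPM were tested with limma 3.58.1 (R 4.3.3) for Mtg16-/- against WT, with an intensity trend and no covariate. Benjamini-Hochberg adjustment ran over all of them. The threshold was an adjusted p under 0.1, the limit below which the study's list of changed genes stays. The study's list is far longer than the 4 genes called here. The test here used TPM without read counts, so the lengths of these lists are not comparable. Permutation tests were run in scipy 1.17.1. The calculation was tested on simulated data.

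The 10 genes and all lists were chosen with earlier results of these data known. Named besides them are the targeted gene, the 3 lowest and 3 highest differences among the further structure genes (1 of these is not reported here), the most abundant relative in each family, and the 5 genes of mean TPM of at least 10 that are closest in pattern. Genes named after their values were seen are marked so. Alternatives were a pseudocount of 0.1, no filter or a filter at a mean TPM of 5, scaling by median ratios or quantiles, no trend, robust moderation, array weights, a replicate block, an adjusted p under 0.05 and each library left out. Positions are RefSeq gene spans.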

Additional observations from a re-analysis of the deposited data

How the results depend on the processing

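The log2 fold changes of the 10 genes stayed below 0 in all 150 combinations of gene and alternative, and 142 kept their side of the threshold. None of the 10 was called under any alternative except the replicate block. The count of called genes among all tested was 4 and became 15 with a mean TPM of at least 5, 1 with median-ratio rescaling and with quantile normalization, 20 with robust moderation and 855 with array weights, where the median log2 fold change of the 10 was -0.43 and that of Myo7b -0.31. It was 0 without a filter, without an intensity trend and at an adjusted p under 0.05, where limma gave 2187, 1754 and 1789 genes at an unadjusted p under 0.05. Leaving out 1 library gave 0 to 40 called genes, with 40 without WT replicate 1, 9 without WT replicate 3, 1 without Mtg16-/- replicate 1, 2 without Mtg16-/- replicate 2 and 0 without Mtg16-/- replicate 3 (1058 at an unadjusted p under 0.05), and 0 of the 10 genes called each time. The number of the 10 whose genotypes did not overlap, an alternative chosen after seeing the data, was 0 to 10 over the libraries left out. The cause of these differences was not tested.

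With the replicate number of the labels as a block, limma called 1201 of 12268 tested genes, 816 of them lower. Of the 10 genes 8 were among them (limma adjusted p = 0.0123 to 0.0867), with Myo1a at 0.183 and Ush1c at 0.310. The labels do not tie the numbers to a litter or day. Deviations of same-numbered libraries correlated at 0.429, 0.0753 and 0.237, below the limit of 0.1 for 1 pair, so the numbers were not taken as a pairing. Libraries of unlike number correlated at -0.331 to 0.198. WT replicates 1 and 3 correlated best with the Mtg16-/- library of their own number, and WT replicate 2 with Mtg16-/- replicate 3. These values do not decide whether the numbers mark a pairing.

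The number of reads behind a TPM is unknown, and 3 mice per genotype limit the precision.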
